A study of Mus musculus with 8 samples.

Results

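A list of 50 genes, Trex1 and its neighbours on mouse chromosome 9, was examined in bone marrow-derived macrophages (BMDMs) that carried or lacked a working Trex1 allele. The genes had been listed by symbol, and all 50 matched 1 gene each among the 54532 deposited genes. In the GRCm38 build they run from Wdr82, which starts at position 106170928, 2.89 Mb on one side of Trex1, to Setd2, which starts at 110532597, 1.48 Mb on the other. Of these 50, 48 had enough counts to be tested, out of 14591 tested genes in all. The 2 that were not tested were Trex1 itself and P4htm, a prolyl hydroxylase gene with between 4 and 9 counts in each library. The questions asked were which neighbours differed with the knockout allele and which of those stayed different when STING was inhibited.

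PolyA-selected RNA was sequenced from 4 groups of 2 libraries. WT BMDMs and Trex1-/- BMDMs (Trex1-KO) received the vehicle DMSO, and 2 further groups of Trex1-KO BMDMs received the STING antagonist H151 (500 nM) or SN-011 for 12 h. The study's methods give the same concentration for SN-011 as for H151. All cells were grown for 7 days in L929-conditioned medium from marrow of mice aged 6 to 8 weeks. Trex1-/- mice were bred from heterozygous parents, WT mice were bought separately, and the methods place all mice on the C57BL/6J background. The strain in which the Trex1 allele was first made is not given in the sources used here. No WT libraries with an antagonist were analysed here, and the genotype cannot be told apart from the source of the mice. The study describes the 2 libraries of a group as independent experiments, and whether they came from separate mice is not given in the sources used here, so p-values measure the spread between these libraries.

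TREX1 is an exonuclease that degrades DNA in the cytosol. Without it, DNA accumulates and the sensor cGAS makes cGAMP, which activates STING and the interferon response. H151 and SN-011 are small molecules that block STING. Genes near a targeted allele are passed on together with it. The region is dense in housekeeping genes. It holds genes for the replication-stress protein ATRIP, a ribosomal protein, the GTPase RHOA, the antioxidant enzyme GPX1, chromatin regulators such as SETD2 and SMARCC1, and ubiquitin-pathway enzymes such as USP4, USP19 and ARIH2.

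Total counts ran from 11845470 to 17284863 per library, and 1 count equalled 0.0582 to 0.0849 CPM, a unit that divides counts by the TMM-adjusted size of each library. Macrophage markers gave the highest of the marker sums, with 7 macrophage genes summing to between 29600 and 31900 CPM in all 8 libraries. Lyz2 made up most of that sum, and 3 of the 7 (Fcgr1, Cd68 and Adgre1) were called higher in Trex1-KO, by 2.20-fold, 1.35-fold and 1.14-fold. By contrast, 4 T cell markers summed to at most 0.326 CPM and 4 B cell markers to between 2.28 and 5.18 CPM. The 5 neutrophil markers summed to between 5.63 and 6.11 CPM in WT and between 29.0 and 50.5 CPM in the 6 knockout libraries, and 4 fibroblast markers to between 1960 and 2140 CPM in WT and between 802 and 1140 CPM in the knockout libraries. In WT, Col1a2 and Col1a1 averaged 1132 and 906 CPM. These lay above Cd68 (788 CPM), Mertk, Fcgr1 and Itgam and below Lyz2, Csf1r and Adgre1. The SN-011 libraries carry another treatment text than the other 6, and a batch limited to them cannot be told apart from SN-011. Within groups of 2 libraries, the median coefficient of variation of the neighbours lay between 2.74% (Trex1-KO+SN-011) and 4.5% (Trex1-KO). Over all tested genes it lay between 5.89% (Trex1-KO+SN-011) and 7.58% (Trex1-KO+H151). Some low neighbours varied more, such as Traip at 2.43 and 0.813 CPM in WT.

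The targeted gene could not be used to check the labels. Trex1 (ENSMUSG00000049734, chr9:109057933-109059734) had 0 counts in every library, WT included. All of its 1147 exonic bases lie inside exons of Atrip on the same strand. In the deposited tables as a whole, 1228 genes lie wholly within exons of other genes, and 31 of these had any count. A count of 0 for Trex1 therefore says nothing about its expression in these files. How bases shared by 2 genes were treated in counting is not given in the sources used here.

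Of the 48 tested neighbours, 10 differed between Trex1-KO and WT at an edgeR FDR of 0.05, which is 20.8% against 16.4% of all tested genes. Atrip, Gpx1, Apeh and Rhoa were higher, 4 of 48 or 8.33% (9.27% of all tested genes). Rpl29, Abhd14a, Pcbp4, Lamb2, Wdr6 and Prkar2a were lower, 6 of 48 or 12.5% (7.11% of all tested genes). A change of at least 1.5-fold was seen in 6 of 48 (9.11% of all tested genes) and of at least 2-fold in 4 of 48 (6.12%). When libraries were scaled by total counts in place of TMM, 2 neighbours were called higher and 9 lower, beside 6.48% and 11% of all tested genes, and the median of all genes moved by -0.085 on the log2 scale. The median size of the log2 change was 0.109 for the neighbours and 0.176 for all tested genes. In bulk RNA, fewer cells of a type and less RNA per cell cannot be told apart.

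**Figure D1:**
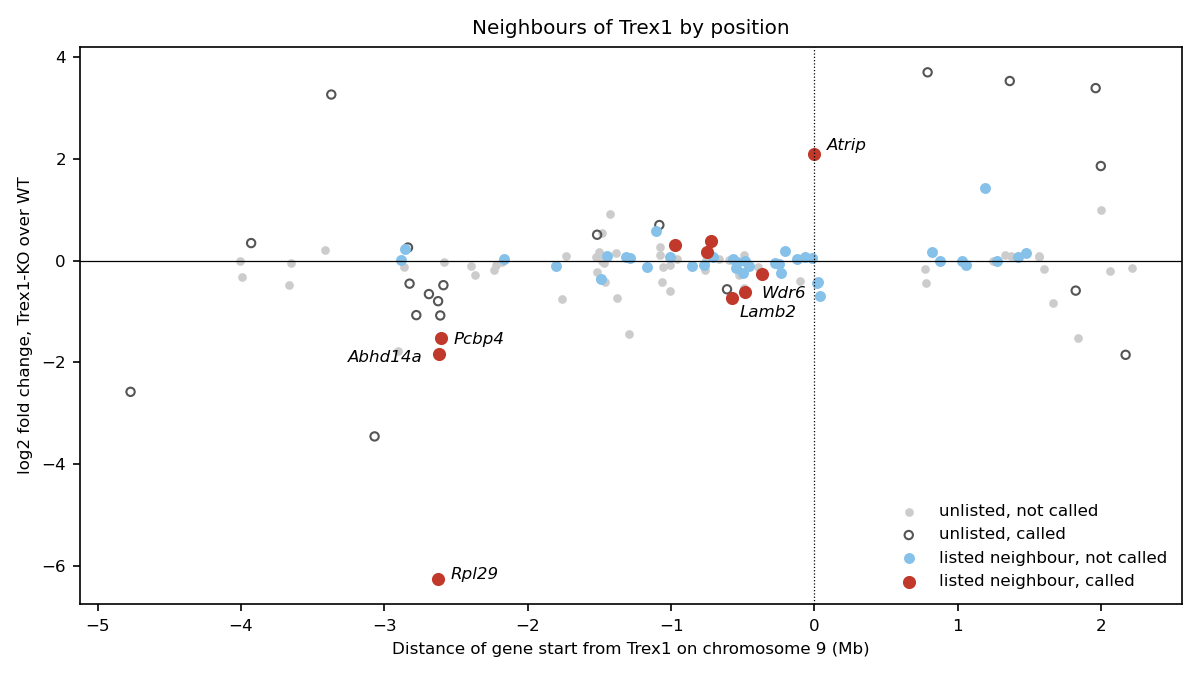
Log2 change of Trex1-KO over WT (vertical axis) by distance of the gene's start from Trex1 in Mb (horizontal axis) for 125 tested genes in the span and 2 Mb to either side. Red points are the 10 called neighbours and blue points the 38 that were not called, with other genes as open circles (called) or grey points (not called); most points lie near 0, Rpl29 lies at -6.26 and Atrip at 2.10.

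Rpl29, which encodes a protein of the large ribosomal subunit, fell most of the neighbours. Rpl29 (ENSMUSG00000048758, chr9:106429454-106431568) was measured at 289 and 277.5 CPM in WT, 4.15 and 3.30 in Trex1-KO, 3.83 and 3.36 with H151, and 4.596 and 4.756 CPM with SN-011. All 6 knockout libraries lay far below both WT libraries. The WT mean was 283 ± 8.14 CPM and the Trex1-KO mean 3.72 ± 0.603 CPM (SD, n = 2), which gave a log2 change of -6.26 ± 0.10 (SE, edgeR adjusted p = 2.11e-13), or 76.4-fold lower in uniquely mapped pairs. Trex1-KO kept 1.31% of the WT value. Per kilobase of exon, Rpl29 ranked first of the 50 listed genes in WT, at 251.5 CPM per kb, and 37th in Trex1-KO, at 3.31 CPM per kb. Neither antagonist moved it past the test, with log2 differences from Trex1-KO of -0.05 (95% interval -0.41 to 0.32) for H151 and 0.33 (-0.01 to 0.68) for SN-011.

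Rpl29 has many near-identical copies in the mouse genome, so the sequences that separate it from them are shown here. Searching with its 483 coding bases found 60 annotated genes of at least 90% identity over at least 300 bases, of which 35 had 0 counts in all libraries and 6 had at least 20 counts over the 8 libraries. The authors counted only uniquely mapped read pairs, so within the coding sequence a pair can be told apart from those of a copy only where it covers a base that differs. Substitutions are written with the Rpl29 base first, the position counted from 1 at the first base of the Rpl29 coding sequence, and the base of the copy last. Gm8210 and Gm13841 have the same 3 substitutions, C72A, C300T and T423C. Gm14036 has G231A, C300T and T423C, and Gm10709 has G205A, C300T, T423C and G457A. Of these, C300T and T423C are shared by all 4 copies. The lines give 29 coding bases around 4 of the positions, from GENCODE M21 transcripts, with the differing base in capitals. In Rpl29, position 72 lies in chr9:106430328-106430356, position 205 in chr9:106431157-106431185, position 231 in chr9:106431183-106431211 and position 300 in chr9:106431252-106431280, on the plus strand of GRCm38.
Rpl29, position 72: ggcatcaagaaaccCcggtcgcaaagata
Gm8210 and Gm13841, position 72: ggcatcaagaaaccAcggtcgcaaagata
Rpl29, position 205: cagtgagtgcgcgcGcagaggccatcaag
Gm10709, position 205: cagtgagtgcgcgcAcagaggccatcaag
Rpl29, position 231: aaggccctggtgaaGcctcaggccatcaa
Gm14036, position 231: aaggccctggtgaaAcctcaggccatcaa
Rpl29, position 300: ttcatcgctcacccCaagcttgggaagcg
Gm8210, Gm13841, Gm14036 and Gm10709, position 300: ttcatcgctcacccTaagcttgggaagcg

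The copies did not move together. Gm8210 (chr1:43189156-43189638) had 2 and 0 counts in WT, 117 and 135 in Trex1-KO, 86 and 144 with H151, and 196 and 126 with SN-011, so that all 6 knockout libraries lay above WT (edgeR adjusted p = 1.97e-07 for Trex1-KO over WT). Gm10709 (chr9:7751725-7752204), on the same chromosome but far from Trex1, went the other way, with 78 and 76 counts in WT and between 0 and 2 in the knockout libraries (edgeR adjusted p = 1.18e-05). Gm13841 (chr5:115801677-115802159), whose coding bases carry the same substitutions as Gm8210, had 104 and 106 counts in WT, 127 and 315 in Trex1-KO, 100 and 299 with H151, and 319 and 189 with SN-011. Its 2 Trex1-KO libraries were far apart and it did not pass the test in Trex1-KO (log2 change 1.05, edgeR adjusted p = 0.0771). All 6 knockout libraries lay above WT in CPM, and it was called higher with SN-011 against WT (1.23, edgeR adjusted p = 0.0461) and for the mean of the 3 knockout groups (edgeR adjusted p = 0.0313). Gm14036 had 0 counts in both WT libraries and between 3 and 12 in the knockout libraries, and was too low to test. The copy 4931440P22Rik aligned at 93.4% identity over 456 bases, in a gene of 4437 exonic bases, so its counts need not come from that part. It lay between 6.38 and 8.83 CPM in all libraries, with overlapping groups, and gave a log2 change of 0.07 (edgeR adjusted p = 0.864). How reads of Rpl29 were divided between these loci is uncertain. The sum of Rpl29 and all 60 copies was 305 ± 9.69 CPM in WT against 36.8 ± 6.31 CPM in Trex1-KO (SD, n = 2), which is 8.30-fold lower. With the antagonists the sums were 34.1 ± 8.99 CPM for H151 and 42.5 ± 3.11 CPM for SN-011. Since uniquely mapped pairs alone were counted, pairs that match several loci equally are missing from the values of Rpl29, of its copies and of the sum. Counts also do not show which bases the pairs carried, so these folds are differences in uniquely mapped pairs and need not equal those in Rpl29 RNA.

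**Figure D2:**
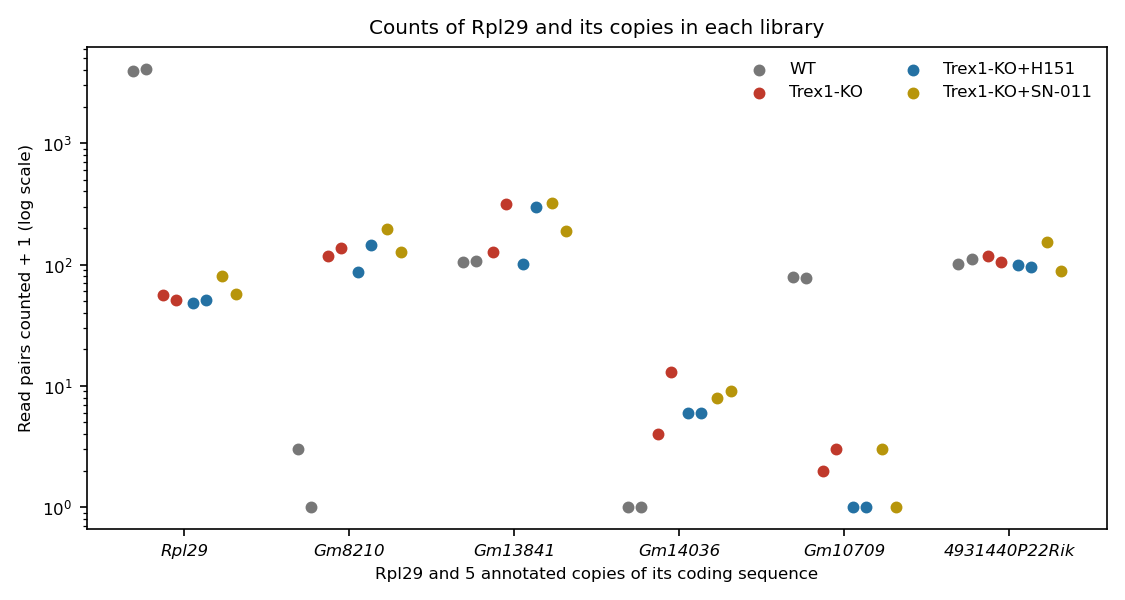
Read pairs counted plus 1 (vertical log axis) for Rpl29 and 5 of its annotated copies (horizontal axis), 1 point per library and 1 colour per group. Rpl29 had 3926 and 4094 counts in WT and between 47 and 79 in the knockout libraries, Gm8210 and Gm14036 sit near 0 in WT and higher in the knockout libraries, Gm10709 lies near 0 in the knockout libraries, and 4931440P22Rik overlaps between all groups.

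Close to Rpl29, Abhd14a and Pcbp4 also fell. Abhd14a (ENSMUSG00000042210, chr9:106440051-106447678), which encodes an alpha/beta hydrolase-fold protein, was measured at 8.32 and 6.03 CPM in WT, 2.11 and 1.91 in Trex1-KO, 2.20 and 2.75 with H151, and 2.68 and 2.97 CPM with SN-011. Every knockout library lay below both WT libraries, and the log2 change in Trex1-KO was -1.83 ± 0.25 (SE, edgeR adjusted p = 0.000181). Of its 2111 exonic bases, 207 are shared with Abhd14b. Pcbp4 (ENSMUSG00000023495, chr9:106453291-106464012), a KH-domain protein that binds poly(C) RNA, was measured at 22.5 and 19.4 CPM in WT, 6.94 and 7.72 in Trex1-KO, 9.37 and 8.06 with H151, and 9.48 and 8.15 CPM with SN-011. The groups did not overlap with WT, and the log2 change in Trex1-KO was -1.51 ± 0.15 (SE, edgeR adjusted p = 1.04e-05). The intervals of the antagonist effects on these genes were wide, from -0.32 to 0.94 (H151) and from -0.13 to 1.10 (SN-011) on the log2 scale for Abhd14a, and from -0.12 to 0.60 and from -0.08 to 0.63 for Pcbp4.

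Rpl29, Abhd14a and Pcbp4 belonged to a stretch of 9 consecutive tested genes over 243.5 kb, all called lower in Trex1-KO, which was found after the values had been seen. In order it held Alas1 (-0.45 on the log2 scale), the rate-limiting enzyme of heme synthesis, the centriole protein gene Poc1a (-1.07), the MAP kinase phosphatase Dusp7 (-0.66), Rpl29, the aminoacylase Acy1 (-0.80), Abhd14a, Abhd14b (-1.08), Pcbp4 and the ADP-ribosyltransferase Parp3 (-0.48). The genes on either side did not share the fall. Tlr9, just before it, was called higher (0.26, edgeR adjusted p = 0.0393) and fell with both antagonists against Trex1-KO, by 0.52 for H151 and by 0.58 for SN-011 (edgeR adjusted p = 0.00245 and 0.000942). Rrp9, just after it, averaged 9.60 CPM in WT and 9.36 in Trex1-KO. Across the genome, 1 stretch of at least 5 consecutive tested genes was called lower throughout, which is the one around Rpl29, and 13 were called higher throughout, the longest with 14 genes from Aim2 to Ifi205 on chromosome 1.

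Atrip rose. Atrip (ENSMUSG00000025646, chr9:109057933-109074124) encodes the partner of the ATR kinase, which it recruits to single-stranded DNA at stalled replication forks, and its exons contain Trex1. It was measured at 14.1 and 17.4 CPM in WT, 64.8 and 70.4 in Trex1-KO, 55.1 and 57.1 with H151, and 54.3 and 54.3 CPM with SN-011. All 6 knockout libraries lay above WT, and the 4 antagonist libraries lay below both Trex1-KO libraries. The log2 change in Trex1-KO was 2.10 ± 0.10 (SE, edgeR adjusted p = 7.16e-09), or 4.28-fold. Against Trex1-KO, Atrip differed by -0.27 with H151 (95% interval -0.46 to -0.08, edgeR adjusted p = 0.215). With SN-011 it differed by -0.32 (-0.51 to -0.13, edgeR adjusted p = 0.0968), and it was called with neither. The latter difference passed the threshold when all genes with a count were kept (edgeR adjusted p = 0.0277) and when only the 4 compared libraries were fitted (0.0379). Of the 7152 exonic bases of Atrip, 1147 are shared with Trex1, and reads of the 2 genes cannot be told apart there. Few genes lying wholly within exons of others had any count (31 of 1228). Whether pairs in the bases shared with Trex1 were counted for Atrip is not given in the sources used here.

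**Figure D3:**
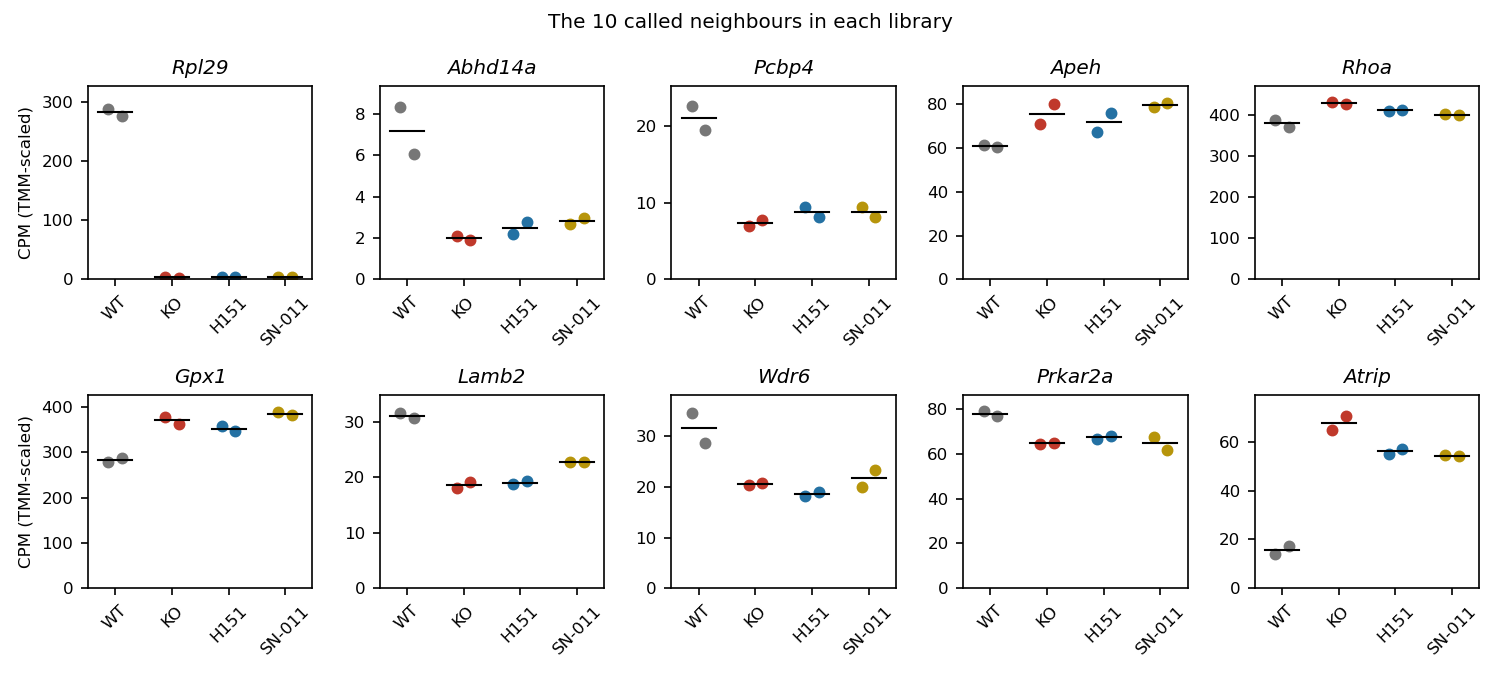
CPM in each library (points) and group mean (horizontal lines) for the 10 called neighbours, in chromosomal order, with WT, Trex1-KO (KO) and the 2 antagonist groups along each horizontal axis and every vertical axis starting at 0. Rpl29, Abhd14a, Pcbp4, Lamb2, Wdr6 and Prkar2a are lower in all 6 knockout libraries and Atrip, Gpx1, Apeh and Rhoa are higher.

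Lamb2 and Wdr6 fell by smaller amounts. Lamb2 (ENSMUSG00000052911, chr9:108479736-108490530), the beta-2 chain of laminin in basement membranes, was at 31.6 and 30.7 CPM in WT, 18.1 and 19.1 in Trex1-KO, 18.7 and 19.4 with H151, and 22.7 CPM in both SN-011 libraries. The groups did not overlap with WT, and the log2 change in Trex1-KO was -0.74 ± 0.10 (SE, edgeR adjusted p = 0.000116). Of the 4 fibroblast markers, which like Lamb2 include matrix genes, Col1a1, Col1a2 and Pdgfra were called lower in Trex1-KO and lay below WT in the same 6 libraries, and the collagens made up nearly all of the summed level given above. The other marker, Dcn, went the other way, at 1.77 and 2.58 CPM in WT and between 2.90 and 3.43 CPM in the knockout libraries, and was not called (0.46, edgeR adjusted p = 0.320). The part of fibroblast RNA in the Lamb2 difference was not tested. Wdr6 (ENSMUSG00000066357, chr9:108572311-108578739) encodes a WD-repeat protein that takes part in tRNA methylation. It was at 34.5 and 28.7 CPM in WT, 20.4 and 20.8 in Trex1-KO, 18.3 and 18.9 with H151, and 20.1 and 23.4 CPM with SN-011. No knockout library reached the lower WT library, and the log2 change was -0.61 ± 0.12 (SE, edgeR adjusted p = 0.00227). Wdr6 shares 383 of its 4163 exonic bases with Dalrd3, which gave a log2 change of 0.00 (edgeR adjusted p = 0.994).

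The other 4 called neighbours passed the test with changes under 1.5-fold. Gpx1 (ENSMUSG00000063856, chr9:108338903-108340343), the glutathione peroxidase that reduces hydrogen peroxide, was at 278 and 286 CPM in WT, 378 and 363 in Trex1-KO, 357 and 348 with H151, and 389 and 382 CPM with SN-011, above WT in all 6 knockout libraries. Its log2 change in Trex1-KO was 0.39 ± 0.05 (SE, edgeR adjusted p = 0.000168), and per kilobase of exon it ranked after Rpl29 and Gnai2 only among the 50 listed genes in WT.

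The calls of the other 3 were lost without single libraries and, in part, under other scalings, filters or tools. Apeh, a peptidase that removes acylated amino acids, was at 61.2 and 60.3 CPM in WT and between 67.1 and 80.6 CPM in the knockout libraries (0.31, edgeR adjusted p = 0.0167), and missed the threshold without WT replicate 1 (0.101), WT replicate 2 (0.126) or Trex1-KO replicate 2 (0.160) and when scaled by total counts (0.0670). Rhoa, a GTPase that organizes actin, was at 389 and 372 CPM in WT, 433 and 427.5 in Trex1-KO and between 401 and 413 CPM with the antagonists (0.18, edgeR adjusted p = 0.0325). Its call was lost without either WT library, either Trex1-KO library or either SN-011 library, with edgeR adjusted p between 0.0600 and 0.266, and with DESeq2 (0.0658). It was also lost when scaled by total counts (0.268), when all genes with a count were kept (0.0583) and when only the compared libraries were fitted (0.0505). Prkar2a, a regulatory subunit of protein kinase A, was at 78.8 and 76.6 CPM in WT and between 61.7 and 67.7 CPM in the knockout libraries (-0.27, edgeR adjusted p = 0.0167). It was lost without WT replicate 1 (0.0985), WT replicate 2 (0.0544), Trex1-KO replicate 1 (0.0690) or Trex1-KO replicate 2 (0.0727), and with DESeq2 (0.0567). In each of these genes all 6 knockout libraries lay on one side of WT.

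The differences were next read under the antagonists. Against WT, 8 neighbours were called with H151 (16.7%, against 11.8% of all tested genes) and 11 with SN-011 (22.9%, against 11.7%). With a 2-fold minimum 5 were called with either, against 3.5% and 4.04% of all tested genes. These contrasts share the WT libraries with each other and with the untreated contrast. Against Trex1-KO, 0 of 48 neighbours were called with H151 and 0 with SN-011, where 2.23% and 2.33% of all tested genes were. DESeq2 also called 0 of 48 with either antagonist. At an unadjusted edgeR p under 0.05, 1 neighbour differed with H151 (Atrip; 9.36% of all tested genes did) and 3 with SN-011 (Lamb2, Shisa5 and Atrip; 12% of all tested genes did). The 95% interval of the antagonist effect lay within 1.5-fold either way for 40 of 48 neighbours with H151 and for 39 with SN-011. It was wider for Abhd14a, Pcbp4, Dock3, Traip, Celsr3, Ccdc51, Plxnb1 and Cspg5 with both and for Rpl29 with SN-011, so a 1.5-fold effect on these lies within the interval. Between SN-011 and H151, edgeR called 0 of 48 neighbours (0.158% of all tested genes) and gave an unadjusted p under 0.05 for 6, and log2 differences lay between -0.36 and 0.45.

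**Figure D4:**
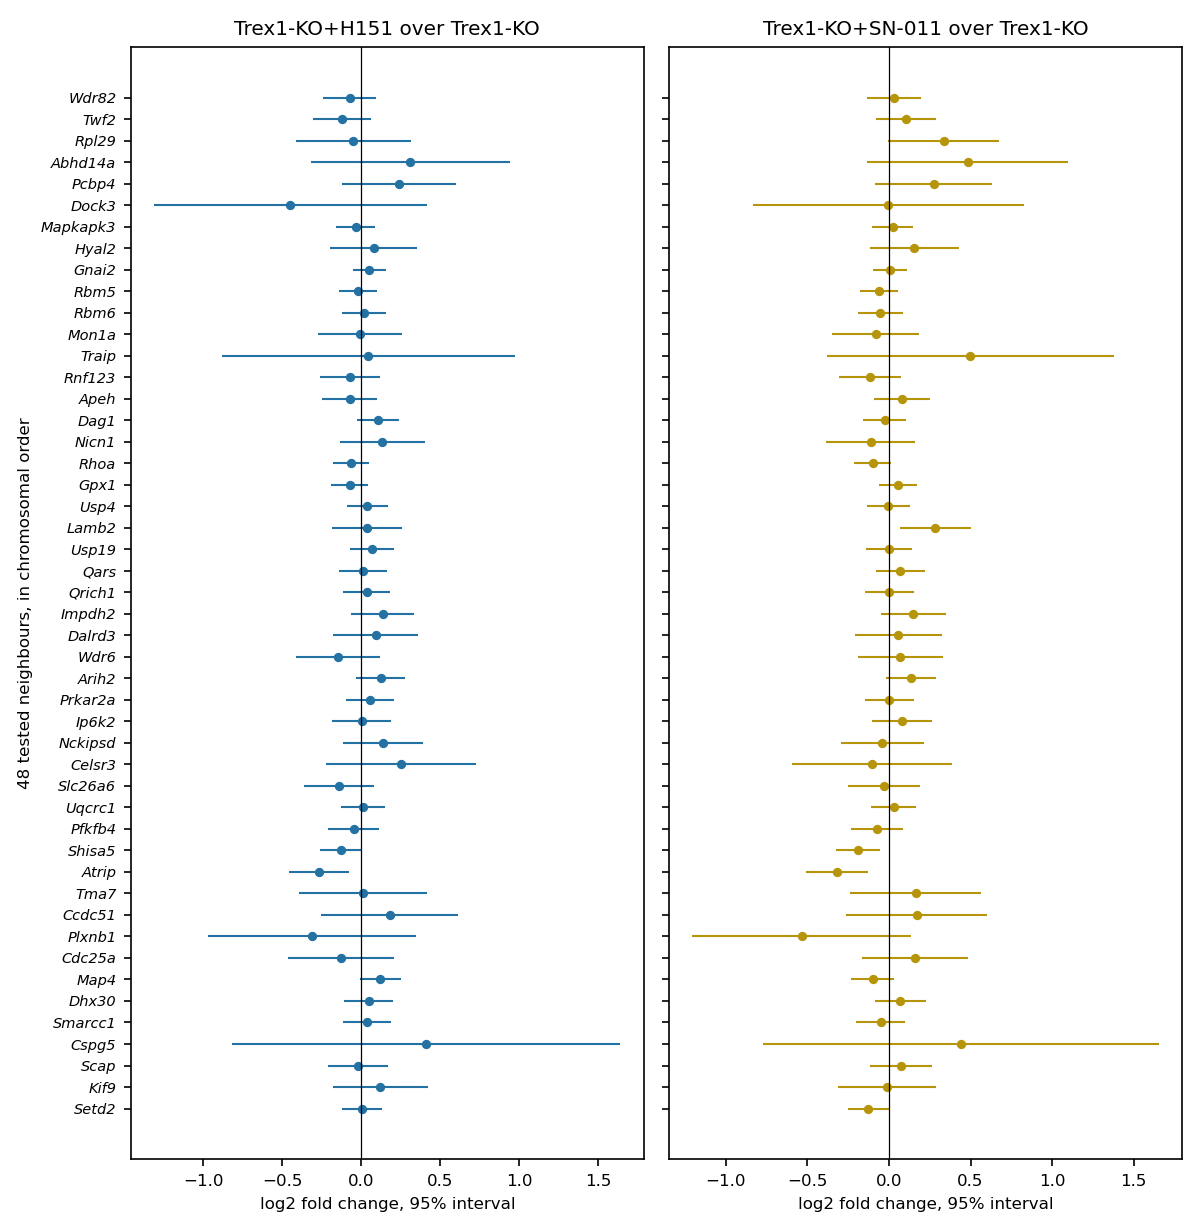
Log2 change (points) and 95% interval (lines) of Trex1-KO+H151 over Trex1-KO (left) and Trex1-KO+SN-011 over Trex1-KO (right) for the 48 tested neighbours in chromosomal order. For 40 (left) and 39 (right) genes the interval lies within 1.5-fold, and the interval of Atrip lies below 0 in both panels.

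A neighbour was counted as staying changed when it was called in the same direction in Trex1-KO, Trex1-KO+H151 and Trex1-KO+SN-011 against WT and was called in neither antagonist contrast against Trex1-KO. This was met by 7 of 48 (14.6%, against 6.87% of all tested genes), namely Rpl29, Abhd14a, Pcbp4, Gpx1, Lamb2, Wdr6 and Atrip. Of the 10 neighbours called in Trex1-KO, 7 stayed changed (70.0%), and of all 2390 genes called in that contrast 41.9% did. With H151 the log2 changes over WT of these 7 genes were -6.31 (Rpl29), -1.52 (Abhd14a), -1.27 (Pcbp4), 0.32 (Gpx1), -0.71 (Lamb2), -0.76 (Wdr6) and 1.83 (Atrip). With SN-011 they were -5.92, -1.35, -1.24, 0.45, -0.46, -0.55 and 1.78 in the same order. Without WT replicate 1 or without Trex1-KO+SN-011 replicate 1, Lamb2 and Wdr6 no longer met the definition and 5 genes did. Atrip no longer met it when all genes with a count were kept, where Tma7 did, or when only the compared libraries were fitted, since it was then called lower with SN-011 against Trex1-KO. Fewer neighbours were called in Trex1-KO+SN-011 against WT without WT replicate 1 or without Trex1-KO+SN-011 replicate 1. The shares of all tested genes called in those fits are not given here.

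Averaging the 3 knockout groups and comparing them with WT called 11 neighbours (22.9%, against 17.8% of all tested genes), and 4 with a 2-fold minimum (5.13% of all tested genes). Relative to Trex1-KO alone, Twf2 and Plxnb1 were added and Rhoa was lost (0.12, edgeR adjusted p = 0.0651). Twf2, an actin-binding protein, was at 55.1 and 58.7 CPM in WT and between 60.3 and 78.0 CPM in the knockout libraries (0.24 ± 0.07 SE, edgeR adjusted p = 0.0364). Plxnb1, a semaphorin receptor whose start lies 0.037 Mb from that of Trex1, was low throughout, at 4.93 and 3.59 CPM in WT and between 1.69 and 3.02 CPM in the knockout libraries, and all 6 lay below WT (-0.98 ± 0.22 SE, edgeR adjusted p = 0.00682). In 23 of 48 neighbours (47.9%) the values had all 6 knockout libraries above or all 6 below both WT libraries, against 28.4% of all tested genes.

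The 38 neighbours that were not called in Trex1-KO included the genes nearest to Trex1 other than Atrip. Shisa5, a membrane protein gene whose start lies 0.019 Mb from that of Trex1, was at 302 and 310 CPM in WT against 303 and 333 CPM in Trex1-KO, with overlapping groups and a log2 change of 0.06 (95% interval -0.08 to 0.19). Tma7, a translation-associated gene at 0.017 Mb, was at 82.3 and 83.0 CPM in WT against 45.2 and 76.9 CPM in Trex1-KO. Both were lower than WT but far apart, and the gene was not called (-0.43, 95% interval -0.83 to -0.03, edgeR adjusted p = 0.147). Ccdc51, which encodes a mitochondrial membrane protein, was at 6.48 and 6.91 CPM in WT against 4.30 and 5.74 CPM in Trex1-KO (-0.41, edgeR adjusted p = 0.200). For 30 of the 38 the 95% interval of the log2 change lay within 1.5-fold either way, and their log2 changes ran from -0.23 to 0.24. The other 8, Dock3, Hyal2, Traip, Celsr3, Tma7, Ccdc51, Plxnb1 and Cspg5, had wider intervals. Cspg5, a proteoglycan gene, had the largest value among them (1.42, 95% interval -0.12 to 2.97), from 0.0736 and 0.474 CPM in WT against 0.528 and 0.989 CPM in Trex1-KO.

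The calls in Trex1-KO are given by role, beside 16.4% called among all tested genes, and roles were not tested against each other. Among 5 ribosome and translation genes, Rpl29 and Wdr6 fell, while Tma7, Dalrd3 and the glutaminyl-tRNA synthetase Qars did not pass the test. Of 4 RNA-binding and splicing genes, Pcbp4 fell, and Rbm5, Rbm6 and the helicase Dhx30 gave between 0.00 and 0.08 on the log2 scale. Of 7 genes for small G proteins and kinase signalling, Rhoa rose, Prkar2a fell, and Gnai2, Mapkapk3, Dock3, Ip6k2 and Nckipsd were not called. None of the 4 chromatin genes (Setd2, which methylates histone H3 at lysine 36, the SWI/SNF subunit Smarcc1, Wdr82 and Qrich1) was called, with values from -0.09 to 0.15 and an unadjusted edgeR p under 0.05 for Setd2 alone (0.0225), nor any of the 4 ubiquitin genes (Usp4, Usp19, Arih2 and Rnf123), with values from -0.10 to 0.08. The cytoskeletal genes Map4, Twf2 and the kinesin Kif9 were not called. Of 9 tested genes grouped under metabolism and redox, Gpx1 and Apeh rose, Abhd14a fell, and Pfkfb4, Impdh2, Uqcrc1, Slc26a6 and Scap were not called. Nicn1, whose place in this group is uncertain, was not called either. Of 6 surface, adhesion and matrix genes, Lamb2 fell and Plxnb1, Celsr3, Dag1, Cspg5 and Hyal2 were not called. Among 3 tested genes of replication and the cell cycle, Atrip rose, while Traip and the phosphatase Cdc25a were not called. Shisa5, Ccdc51 and the vesicle-traffic gene Mon1a, the remaining 3, were not called.

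Genes that were not on the list were counted beside the neighbours. Between the outermost listed genes, 55 unlisted genes were tested and 12 were called in Trex1-KO (21.8%), against 16.4% of all tested genes, and 6 stayed changed. With 2 Mb added on either side, 20 of 77 unlisted genes were called (26%) and 12 stayed changed (6.87% of all tested genes did), and 3 were called with each antagonist against Trex1-KO (2.23% of all tested genes with H151 and 2.33% with SN-011). Of these 77, the 6 with the largest called changes in Trex1-KO among genes whose average log2 CPM was 0 or more are described. Neutrophil granule genes rose, and so did 2 of the neutrophil markers summed above. These were Ngp (20 and 26 counts in WT, between 234 and 305 in the knockout libraries, log2 change 3.54, edgeR adjusted p = 4.64e-08), Ltf (27 and 12 counts, and between 174 and 227; 3.40, edgeR adjusted p = 4.57e-06) and Camp (1 and 7 counts, and between 44 and 88). Of the 5 neutrophil markers, S100a8 and S100a9 were tested and both were called higher. The others were too low to test, with Elane at 0 counts in WT and between 3 and 7 in the knockout libraries, Ly6g at 0 in WT and between 0 and 3, and Mpo at 3 and 0 counts in WT and between 1 and 11, overlapping WT. The part of neutrophil RNA in these differences was not tested. A pair of collagen VI genes moved in opposite directions, with Col6a4 at 42 and 37 counts in WT and between 2 and 6 in the knockout libraries, and Col6a6 at 3 and 1 counts in WT and between 7 and 23 in the knockout libraries. Ccrl2, a chemokine-binding receptor, rose in Trex1-KO (1.86, edgeR adjusted p = 6.98e-08) and fell under both antagonists against Trex1-KO, by 0.68 for H151 and by 0.64 for SN-011 (edgeR adjusted p = 0.00189 and 0.00300).

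Along the whole chromosome, the 5 Mb bin that holds Trex1 (105 to 110 Mb) had 102 tested genes, of which 24 were called in Trex1-KO (23.5%) and 15 stayed changed (14.7%). By share of called genes it ranked 48th of 283 bins with at least 20 tested genes, and by share staying changed 12th. In it, 8 genes stayed changed with at least a 2-fold difference, the highest number in any bin, where the next highest was 6; the bin also holds many genes. Of its neighbours on chromosome 9, the bin from 100 to 105 Mb had 8 of 24 genes called (33.3%) and that from 110 to 115 Mb 6 of 39 (15.4%). These bins were not tested against each other.

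**Figure D5:**
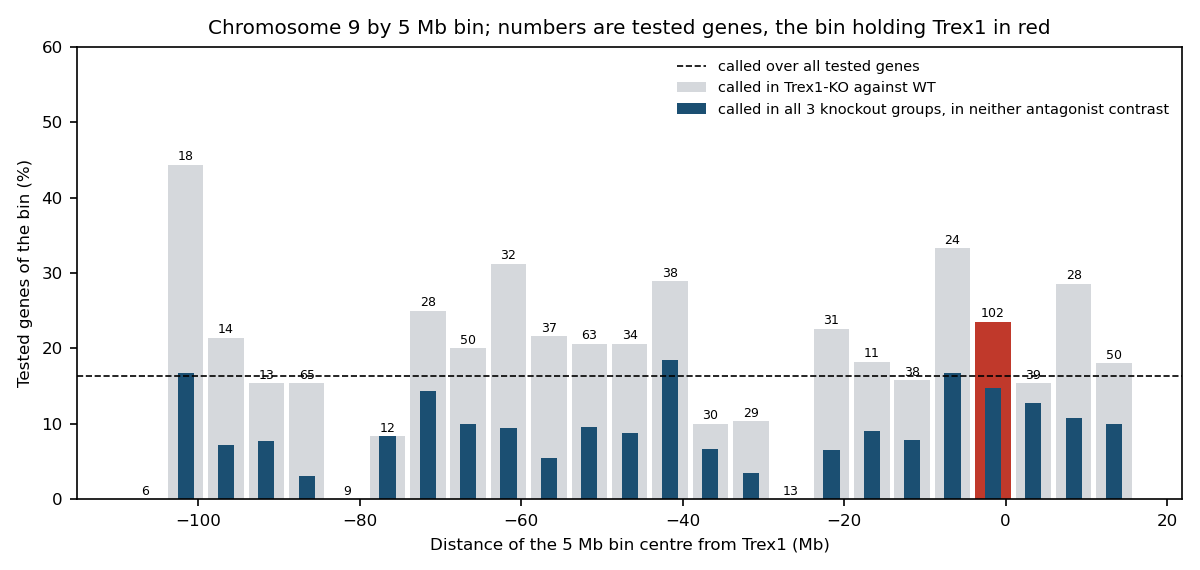
Percentage of tested genes called in Trex1-KO against WT (wide bars) and percentage staying changed under both antagonists (narrow dark bars) in 5 Mb bins of chromosome 9, by distance of the bin centre from Trex1 in Mb, with the number of tested genes above each bar and the share of all tested genes (16.4%) as a dashed line. The red bin holding Trex1 stands at 23.5% called, within the range of other bins on the chromosome.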

How the data were processed

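Per the labels, polyA RNA was sequenced as paired reads. The authors trimmed reads with Trimmomatic, aligned them with HISAT2 and counted uniquely mapped pairs per gene. The submitters' notes name HTSeq and mm10, the study's methods featureCounts. Versions, annotation and the strand setting are not given in the sources used here. The deposited values are raw counts. Symbols and positions came from GENCODE M21 (GRCm38), which held 54495 of 54532 identifiers.

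All 8 libraries entered 1 edgeR 4.0.16 quasi-likelihood fit (R 4.3.3; filterByExpr minimum count 10 and minimum total 15, TMM, 1 mean per group), with two-sided F-tests, Benjamini-Hochberg adjustment over 14591 genes and an FDR of 0.05; the common biological coefficient of variation was 0.0656. Standard errors are approximate, derived from the F statistic, and intervals are 95%. The fit was tested on simulated counts. Copies of Rpl29 were found with blastn 2.17.0. Reads lack molecular identifiers, so counts are not counts of molecules. Alternatives were DESeq2 1.42.0, other scalings and filters, a replicate block, the compared groups alone, a 2-fold minimum and leaving out each library.

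Genes named were Trex1, Atrip and Rpl29, neighbours called with at least 1.5-fold, Gm8210, and up to 6 unlisted genes with the largest called change and average log2 CPM of at least 0; other called neighbours, other Rpl29 copies and the genes beside Rpl29 were added after their values were seen. The neighbours, roles and marker lists were chosen with earlier results of these data known. Dendritic cell markers summed to between 1.49 and 2.96 CPM in all libraries; of these, Xcr1 was called higher in Trex1-KO (log2 change 2.88, edgeR adjusted p = 0.00965) and Zbtb46 was not called (-1.32, 0.0951).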

Additional observations from a re-analysis of the deposited data

How the results depend on the processing

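Requiring a 2-fold change left 4 called neighbours in Trex1-KO against WT, 5 with H151 against WT, 5 with SN-011 against WT, 4 for the mean of the 3 knockout groups and 4 staying changed, by construction of the stricter rule. In Trex1-KO+SN-011 against Trex1-KO, 1 neighbour (Atrip, lower) was called with no filter beyond 1 count and 1 with only the compared groups fitted. Leaving out each library in turn gave 7 to 11 called neighbours in Trex1-KO against WT, 7 to 9 with H151 against WT, 6 to 11 with SN-011 against WT, 0 to 0 in either antagonist contrast, 8 to 13 for the mean of the knockout groups and 5 to 8 staying changed. For the 10 called neighbours, 135 of the alternative fits kept the call and 25 lost it, with 0 changes of sign. Rpl29, Abhd14a, Pcbp4 and Atrip kept it in all 16 each. With 2 Mb bins, 19.6% of genes around Trex1 were called in place of 23.5%. Without neutrophil granule genes, of which Camp alone lies in the 5 Mb bin, 22.8% of that bin were called, an alternative chosen after seeing the data.

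Replicate numbers in the titles are shared between groups, and the labels do not say what they stand for. Deviations of same-numbered libraries correlated across genes at 0.29 between Trex1-KO and Trex1-KO+H151 and at -0.02 between Trex1-KO and Trex1-KO+SN-011. With the replicate number as a block, 11 neighbours were called in Trex1-KO against WT, 9 with H151 and 12 with SN-011 against WT, 0 in either antagonist contrast, and 8 stayed changed, Apeh being added. The share of all tested genes called with the block is not given here, so these counts cannot be read against it. With 2 libraries a group, precision is limited for neighbours under a few CPM.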
